A study of Mus musculus with 17 samples.

Results

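The genes described here encode the moving parts of the axoneme and the machinery that builds it: axonemal dyneins, dynein assembly factors, radial spoke proteins, tektins and the particles of intraflagellar transport (IFT). They were taken by symbol from the gene tables of both stages, as every gene whose symbol begins with Dnah, Dnaic, Dnaaf, Tekt, Ift or Rsph followed by a digit, plus Zmynd10. This gave 42 of the 23980 genes listed at each stage. They comprised 5 outer arm heavy chains, 2 outer arm intermediate chains, 6 inner arm heavy chains, 4 dynein assembly factors, 6 radial spoke proteins, 5 tektins, 3 IFT complex A subunits and 11 IFT complex B subunits. Poly(A)+ RNA was sequenced with strand information in 17 libraries from mice labelled C57BL6/J. Of these, 6 came from leptotene/zygotene (L/Z) spermatocytes sorted by FACS at 3 to 4 weeks of age, 2 for each of the wild type (WT), the Pld6 KO and the Dnmt3l KO. The other 11 came from whole testes at postnatal day 0 (P0), from 2 WT, 4 Pld6 KO, 2 Dnmt3l KO and 3 double KO (DKO) samples. Pld6 encodes the mitochondrial nuclease that takes part in piRNA biogenesis, and Dnmt3l encodes the cofactor of de novo DNA methylation in germ cells, and the DKO lacks both. The study used these mutants to separate the roles of piRNAs and DNA methylation in germ cells. The study notes that germ cells of both single mutants die at late zygotene, so mutant L/Z cells were sorted from testes without the later cells present in WT. The labels name the samples biological replicates without giving the number of animals in each, so p-values measure the spread between these samples.

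The axoneme is the microtubule core of motile cilia and of the sperm tail. Outer and inner dynein arms slide its doublet microtubules past each other, radial spokes pass signals to the arms, and tektins are filament-like proteins of the doublet wall. Dynein arms are put together in the cytoplasm by assembly factors such as Zmynd10 and the Dnaaf proteins, and IFT particles carry parts along the growing axoneme: complex B is linked to outward and complex A to return transport. In the testis the sperm tail is built after meiosis, while IFT also serves the primary cilia of somatic cells.

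Regulatory factors of the RFX family bind promoters of many cilium genes at X-box motifs, so the promoter windows of these genes were read for them. RefSeq gave a window of 300 bases (250 before and 50 after the start site, GRCm38.p6) for 36 of the 42 genes. The entries not matched were Dnaaf1, Ift122, Ift80, Ift81, Rsph1 and Rsph4a. The inverted repeat GTTGCNNNGCAAC was found in the windows of 7 of these 36 genes (19.4%), namely Dnah6, Dnah7a, Dnah7b, Dnaic2, Rsph3b, Tekt2 and Tekt4, against 0.252% of the 27025 genes with a window. The form GTNNCCATNGNNAC, searched on both strands, was found in 4 (11.1%), namely Dnaaf2, Rsph9, Tekt1 and Zmynd10, against 1.06% of all genes. The half-site GTTGC on either strand, which is contained in the inverted repeat, was in 30 of 36 (83.3%) against 38.6%. The motifs were chosen after these sequences had been seen, and a match describes letters, not binding. Of the genes reported below as changed at L/Z, Dnah6 held the inverted repeat, and Tekt1 and Zmynd10 held the second form. Dnah2, Dnah5, Ift27 and Ift88 are also reported as changed but held only the half-site, and Ift80 had no window. The stretches shown next are those of Dnah6, Tekt1, Zmynd10 and the other genes with the inverted repeat, Rsph3b excepted. Each is read 5′ to 3′ on the gene's strand, with the motif in capitals.
Dnah6, chr6:73221645-73221727, minus strand: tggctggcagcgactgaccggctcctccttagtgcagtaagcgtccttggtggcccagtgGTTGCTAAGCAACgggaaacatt
Dnah7a, chr1:53706819-53706901, minus strand: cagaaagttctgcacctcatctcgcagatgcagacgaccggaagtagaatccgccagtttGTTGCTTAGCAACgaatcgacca
Dnah7b, chr1:46066769-46066851, plus strand: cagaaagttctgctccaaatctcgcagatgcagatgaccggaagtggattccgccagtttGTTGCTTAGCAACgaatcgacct
Dnaic2, chr11:114727326-114727408, plus strand: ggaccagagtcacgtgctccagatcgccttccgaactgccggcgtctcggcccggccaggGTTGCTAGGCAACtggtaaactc
Tekt2, chr4:126325695-126325777, minus strand: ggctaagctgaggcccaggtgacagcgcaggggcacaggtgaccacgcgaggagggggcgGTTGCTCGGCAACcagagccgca
Tekt4, chr17:25471494-25471576, plus strand: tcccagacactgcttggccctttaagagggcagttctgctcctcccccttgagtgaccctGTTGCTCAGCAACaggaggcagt
Tekt1, chr11:72361874-72361957, minus strand: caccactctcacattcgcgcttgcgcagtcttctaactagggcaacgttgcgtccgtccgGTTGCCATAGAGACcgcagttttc
Zmynd10, chr9:107547244-107547327, plus strand: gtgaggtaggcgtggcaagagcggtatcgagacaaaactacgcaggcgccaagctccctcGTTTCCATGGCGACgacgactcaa
Dnah7a and Dnah7b, near-identical copies of an inner arm heavy chain, held the same site, GTTGCTTAGCAAC. In Zmynd10 the motif began at the start site itself, and in Dnah6 it lay 36 to 24 bases before it.

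Total fragments assigned to genes ranged from 5194238 to 14578341 per L/Z library and from 9900346 to 23498968 per P0 library. The ribosomal RNA precursor Rn45s was high at L/Z in 2 first replicates, WT (8.273%) and Pld6 KO (8.063%), against 0.134% to 0.301% in the other 4, and ranged from 0.0% to 4.431% at P0. The labels held for the targeted genes: Pld6 had 344 and 352 fragments in WT and 0 in both Pld6 KO libraries at L/Z, at least 87.8-fold lower at a floor of 3 fragments per library. Dnmt3l, at 11 to 19 fragments in WT, was at 0 in the pair of Dnmt3l KO libraries (at least 3.12-fold lower). At P0 Pld6 had 0 to 2 fragments in the Pld6 KO and 0 in the DKO libraries, and Dnmt3l 0 to 3 in the Dnmt3l KO and DKO libraries. The summed level of 10 L/Z spermatocyte markers was 2300 to 4010 CPM (counts scaled to a common library size) in WT L/Z libraries and 61.3 to 88.4 CPM in WT P0 libraries, each scaled within its own table. In L/Z libraries 8 Sertoli cell markers still summed to 99 to 576 CPM. The markers of multiciliated epithelium, the other tissue that makes many motile axonemes, summed to 11.2 to 26.5 CPM at L/Z. At P0 the sum was 1.81 to 4.97 CPM. At L/Z, Foxj1 (4.51 to 12.5 CPM) and Ccno (2.8 to 12.9 CPM) were the highest of these markers in every library. Mcidas, a defining factor of those cells, was at or below 0.8 CPM in all 17 libraries.

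In WT cells the IFT genes were far more abundant per transcript length than the dynein heavy chains. In WT L/Z spermatocytes the 11 complex B genes ranged from 6.5 to 50.7 FPKM (fragments scaled by transcript length and library size) with a median of 19.1 FPKM, and the 3 complex A genes from 15 to 29.6 FPKM. The 6 inner arm heavy chains reached at most 2.37 FPKM and the 5 outer arm heavy chains at most 4.17 FPKM, with medians of 1.49 and 0.713 FPKM. Heavy chains are among the longest coding transcripts, and FPKM divides by that length.

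The most abundant complex B gene at both stages was Ift20, the subunit also found at the Golgi. Its FPKM was 50.7 ± 8.66 (SD, n = 2) in WT L/Z cells and 37.9 ± 6.26 (n = 2) in WT P0 testes. Ift43, a small complex A subunit, had the highest P0 level of all 42 genes, 39.5 ± 2.31 FPKM (n = 2). This lay within 1 SD of the P0 level of Ift20, so the order of the leading pair was not resolved. Ift74 followed at L/Z with 46.5 FPKM, also within the spread of Ift20.

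Rsph1, a protein of the radial spoke head, had the highest mean at L/Z, 80.4 FPKM, but with an SD of 83.5 FPKM (n = 2). The WT libraries held 243 and 1585 fragments of it, 20.6 and 135 CPM. Its rank at L/Z therefore rested on WT replicate 2. The spoke stalk genes Rsph3a and Rsph3b, which are copies of each other and may share reads, stood at 19.2 and 21.3 FPKM, while the spoke head genes Rsph4a and Rsph6a were at 0.331 and 0.365 FPKM.

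Among dynein genes at L/Z, Dnah8, a heavy chain of the sperm outer arm, was at 4.17 FPKM, and Dnah11 and Dnah17 were at 1.67 and 0.713 FPKM. The outer arm heavy chains Dnah5 and Dnah9 were at 0.0465 and 0.106 FPKM. Of the intermediate chains, Dnaic1 stood at 4.12 FPKM and Dnaic2 at 0.142 FPKM at L/Z, whereas at P0 they were at 0.572 and 0.876 FPKM. The inner arm heavy chains Dnah1, Dnah2 and Dnah7b were at 2.0 to 2.37 FPKM, and Dnah6 at 0.0644 FPKM.

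The assembly factors Dnaaf1, Dnaaf2, Dnaaf3 and Zmynd10 were at 5.53, 14.7, 5.1 and 4.96 FPKM in WT L/Z cells. At P0 the same genes were at 1.88, 7.9, 2.01 and 0.131 FPKM. Of the tektins, Tekt2 and Tekt1 led at L/Z with 7.06 and 4.16 FPKM, and Tekt3 and Tekt4 were at 0.138 and 0.349 FPKM. In all, 31 of 42 genes exceeded 1 FPKM in WT L/Z cells and 25 in WT P0 testes. The FPKM was higher at L/Z for 34 genes and lower for 8, Dnah5, Dnah6, Dnah9, Dnaic2, Ift27, Ift43, Ift57 and Rsph3b. The same count over all genes was not made. Some directions rested on small differences at low levels, such as Dnah9 (0.106 against 0.107 FPKM) and Tekt3 (0.138 against 0.106 FPKM). The stages differ in tissue, read length and scaling, so the direction between them was not tested. Fewer cells of a type cannot be told apart from less RNA per cell in such bulk samples.

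**Figure D1:**
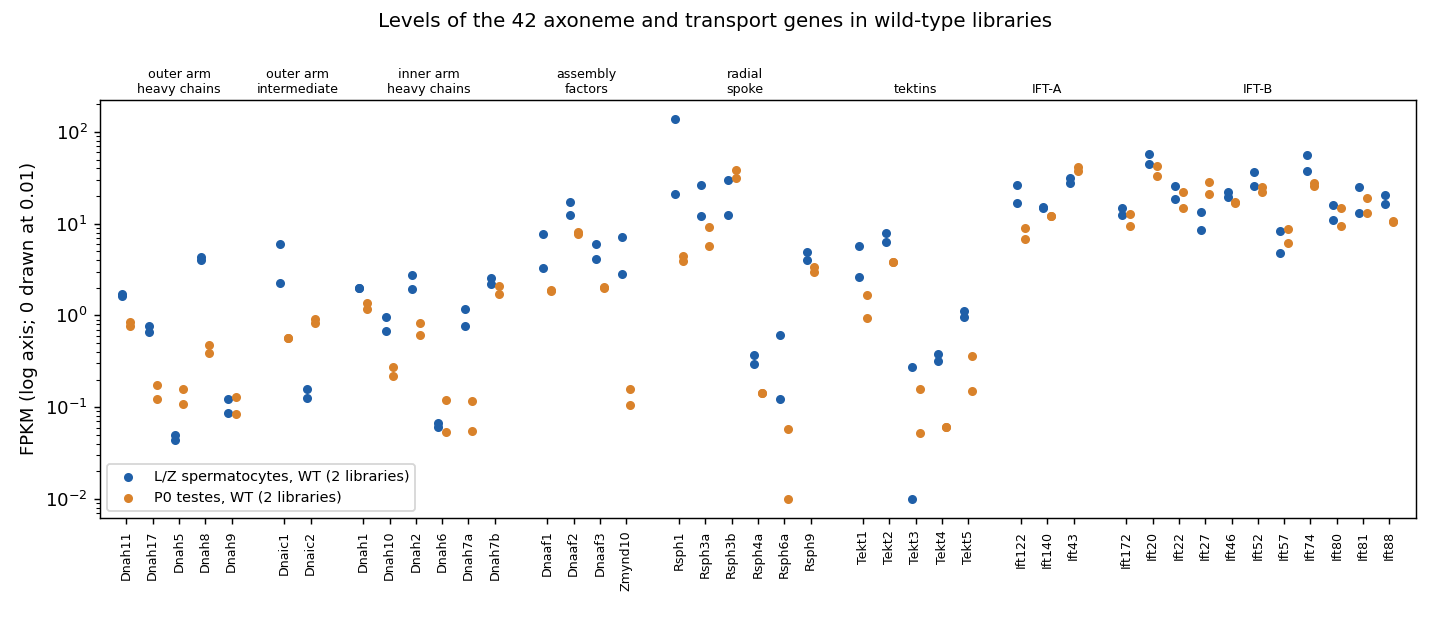
FPKM (log axis) of each of the 42 genes in the 2 WT libraries of L/Z spermatocytes and of P0 testes, grouped by role, with a value of 0 drawn at 0.01. IFT genes lie between 4 and 60 FPKM at both stages, heavy chains below 5 FPKM, and Zmynd10 and Rsph1 stand apart between the stages.

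To ask whether loss of Pld6 changed these genes in spermatocytes, Pld6 KO and WT L/Z libraries were compared by edgeR's quasi-likelihood test over 14662 genes, calling a gene at a false discovery rate (FDR) under 0.05 and a change over 2-fold. Of the 42 genes 38 had enough fragments; Dnaic2, Rsph6a, Tekt3 and Tekt4 did not. Zmynd10 fell and Dnah6 rose, and none of the other 36 was called. The 2 calls among 38 genes (5.26%) compare with 0.225% of all genes tested. The single higher and single lower call (2.63% each) compare with 0.184% called higher and 0.0409% called lower among all genes. Zmynd10, the lower call, was the gene added by name, and the genes were chosen with earlier results of these data known. These shares may therefore not be independent of that choice. The median log2 fold change was -0.11 over the 38 genes and 0.0 over all genes.

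More calls were made for Dnmt3l KO, among these genes as among all genes. Of the 38 genes, 8 (21.1%) were called in Dnmt3l KO against WT L/Z cells, against 5.47% of all genes. Higher were the heavy chains Dnah6 and Dnah5 and the complex B genes Ift80 and Ift88, 10.5% of the genes against 3.89% of all genes. Lower were Zmynd10, Tekt1, Dnah2 and the complex B gene Ift27, 10.5% against 1.58%. The limit given above for the choice of genes, Zmynd10 among them, holds for these shares too. The median was -0.11, against -0.04 over all genes. Both comparisons used the same WT libraries and are therefore given side by side, without a test of their overlap. Without WT replicate 2 no gene was called in Pld6 KO, and without either Dnmt3l KO library, which share the estimate of spread, 1 was (Dnah6). For Dnmt3l KO the count was 2 without WT replicate 1, 0 without Dnmt3l KO replicate 1 and 2 without Dnmt3l KO replicate 2.

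**Figure D2:**
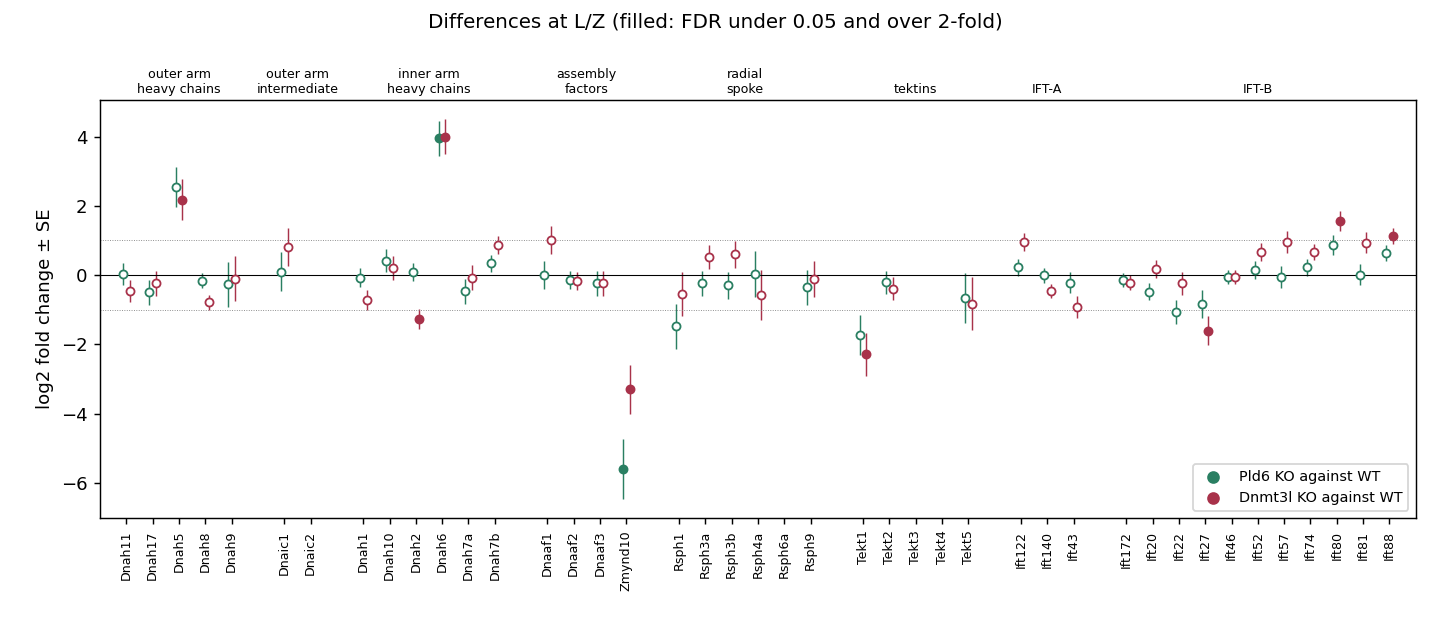
Log2 fold changes ± SE (edgeR) of the 38 tested genes at L/Z for Pld6 KO and Dnmt3l KO, each against the same 2 WT libraries; filled points passed an FDR of 0.05 and 2-fold, dotted lines mark 2-fold, and genes without a point were not tested. Dnah6 lies near 4 in both mutants, Zmynd10 is the lowest in both, and most IFT genes lie within 2-fold.

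Zmynd10 (chromosome 9, 107546872 to 107551321) encodes a cytoplasmic factor without which dynein arms are not preassembled. WT libraries held 52 and 130 fragments, Pld6 KO libraries 0 and 3, and Dnmt3l KO libraries 5 and 9. In CPM scaled by the trimmed mean of M-values (TMM) these were 4.4 and 11.1, 0 and 0.237, and 1.0 and 0.644. Both WT libraries were above all 4 mutant libraries. The ratio of summed counts was 50.3-fold lower in Pld6 KO, with an exact 95% interval of 17 to 246 for counting error only (edgeR FDR 0.0269). In Dnmt3l KO the log2 fold change was -3.3 ± 0.7 (SE, FDR 0.024), 9.84-fold lower. The Pld6 KO call was lost without WT replicate 2 or either Dnmt3l KO library. The Dnmt3l KO call was lost without WT replicate 2 or either Dnmt3l KO library, and both calls were absent with limma on FPKM. The other 3 assembly factors had no call, although Dnaaf1 was at 8.72 and 20.4 CPM in WT, 12.8 and 16.3 CPM in Pld6 KO and 37.2 and 21.9 CPM in Dnmt3l KO (log2 fold change 1.01 ± 0.4 in Dnmt3l KO, edgeR FDR 0.141).

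Dnah6 (chromosome 6, 73017603 to 73222227), an inner arm heavy chain whose promoter stretch is shown above, behaved in the opposite way. WT held 10 and 9 fragments, those of Pld6 KO 87 and 160 and those of Dnmt3l KO 94 and 110. As CPM these were 0.847 and 0.765, 12.6 and 12.6, and 18.8 and 7.87. No mutant library came near the WT level. Dnah6 was 15.5-fold higher in Pld6 KO (log2 3.95 ± 0.51, edgeR FDR 0.011) and 16-fold higher in Dnmt3l KO (log2 4.0 ± 0.51, FDR 0.0036). The call held in 13 of 17 alternative settings for Pld6 KO and 14 of 17 for Dnmt3l KO. It was lost for Pld6 KO without WT replicate 2, and for Dnmt3l KO without Dnmt3l KO replicate 1. Even so, its mutant level remained low per length, 1.01 ± 0.0109 FPKM (SD, n = 2) in Pld6 KO and 1.08 ± 0.643 FPKM (n = 2) in Dnmt3l KO.

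Dnah5 (chromosome 15, 28154854 to 28472045), an outer arm heavy chain, had 9 and 8 fragments in WT, 29 and 54 for Pld6 KO and 23 and 31 for Dnmt3l KO. The CPM were 0.762 and 0.68, 4.22 and 4.26, and 4.6 and 2.22, so that WT was lowest here as well. The log2 fold change was 2.17 ± 0.59 in Dnmt3l KO (edgeR FDR 0.0491) and 2.54 ± 0.58 in Pld6 KO, where the FDR of 0.167 missed the threshold. At these low counts the Dnmt3l KO call was kept in only 4 of 14 alternatives. It was lost without either WT library, without Pld6 KO replicate 2 and without either Dnmt3l KO library.

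Dnah2 (chromosome 11, 69420807 to 69549108), an inner arm heavy chain, was at 37.9 and 26.4 CPM in WT and 33.3 and 35.6 CPM in Pld6 KO, but at 14.8 and 12.1 CPM in Dnmt3l KO. It fell 2.41-fold in Dnmt3l KO against WT (log2 -1.27 ± 0.28, edgeR FDR 0.0258). The call was lost without WT replicate 1 or either Dnmt3l KO library. The direct difference between the mutants was not called (log2 -1.37 ± 0.28, FDR 0.1). Dnah8, of the sperm outer arm, had 62.2 and 58.3 CPM in WT, 53.8 and 54.3 CPM in Pld6 KO and 33.8 and 35.6 CPM in Dnmt3l KO. Its log2 change of -0.79 ± 0.21 in Dnmt3l KO passed the FDR (0.0468, edgeR) but not 2-fold. The remaining heavy chains had no call in either mutant.

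Tekt1 (chromosome 11, 72344717 to 72362442), a tektin whose promoter stretch carries the second motif form, had 38 and 81 fragments in WT, 8 and 23 for Pld6 KO and 7 and 11 for Dnmt3l KO. The CPM were 3.22 and 6.89, 1.16 and 1.81, and 1.4 and 0.787. The groups of WT and mutant libraries did not overlap. It fell 4.89-fold in Dnmt3l KO (log2 -2.29 ± 0.62, edgeR FDR 0.0496), while the log2 change of -1.72 ± 0.58 in Pld6 KO had an FDR of 0.412. The Dnmt3l KO call was kept in 7 of 16 alternatives and was lost when either WT or either Dnmt3l KO library was left out. Tekt2 was at 8.13 and 10.2 CPM in WT, 7.71 and 8.12 CPM in Pld6 KO and 6.8 and 7.16 CPM in Dnmt3l KO, with no call.

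Among the radial spoke genes none of the 5 tested was called in either mutant. Rsph1 (chromosome 17, 31255019 to 31277296) was at 20.6 and 135 CPM in WT, 18.2 and 36.8 CPM in Pld6 KO and 65.0 and 42.5 CPM in Dnmt3l KO. All mutant values lay below WT replicate 2, and only Pld6 KO replicate 1 lay below WT replicate 1. Its log2 fold change of -1.48 ± 0.64 in Pld6 KO (unadjusted p = 0.0406, edgeR FDR 0.52) became 0.43 without WT replicate 2.

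The transport genes divided by subunit. Ift80 (chromosome 3, 68892499 to 69004680), a complex B subunit, was at 42.4 and 62.2 CPM in WT, 75.3 and 116 CPM in Pld6 KO and 182 and 125 CPM in Dnmt3l KO. Ift88 (chromosome 14, 57424064 to 57517936), the complex B subunit first known from polycystic kidney mice, was at 47.5 and 59.8, 69.9 and 96.7, and 127 and 109 CPM in the same order. For both genes every Pld6 KO library lay above WT and below every Dnmt3l KO library. The share of all genes in this order was not computed. In Dnmt3l KO Ift80 rose 2.92-fold (log2 1.55 ± 0.29, edgeR FDR 0.0166) and Ift88 2.2-fold (log2 1.13 ± 0.24, FDR 0.0234). In Pld6 KO their log2 changes of 0.88 ± 0.29 and 0.64 ± 0.23 had FDRs of 0.393 and 0.46. The Ift80 call was lost without WT replicate 1 or Dnmt3l KO replicate 1, and the Ift88 call also without Dnmt3l KO replicate 2.

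Ift27 (chromosome 15, 78159460 to 78174081), a small GTPase of complex B, went the other way. It was at 7.03 and 11 CPM in WT, 4.8 and 5.28 CPM in Pld6 KO and 2.8 and 3.08 CPM in Dnmt3l KO, again without overlap. The share of all genes in this order was likewise not computed. Ift27 fell 3.03-fold in Dnmt3l KO (log2 -1.6 ± 0.41, edgeR FDR 0.0423). Its Pld6 KO log2 change was -0.83 ± 0.4 (FDR 0.552). The Dnmt3l KO call was lost when either WT or either Dnmt3l KO library was left out. Of the complex A genes, Ift122 had 64.8 and 103 CPM in WT and 182 and 144 CPM in Dnmt3l KO, with a log2 change of 0.96 ± 0.25 that passed the FDR (0.0421, edgeR) but not 2-fold. Ift43 had 16.9 and 19.2 CPM in WT, 14.4 and 16.5 CPM in Pld6 KO and 7.0 and 11.7 CPM in Dnmt3l KO (log2 -0.92 ± 0.32 in Dnmt3l KO, FDR 0.101). Over all 11 complex B genes the median log2 change was 0.66 in Dnmt3l KO, with 2 called higher and 1 lower, and -0.05 in Pld6 KO, with none called. Of those not called, Ift57, Ift81, Ift74 and Ift52 had log2 changes of 0.66 to 0.95 in Dnmt3l KO (edgeR FDR 0.0757 to 0.139), and Ift20, Ift22, Ift46 and Ift172 of -0.24 to 0.18.

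**Figure D3:**
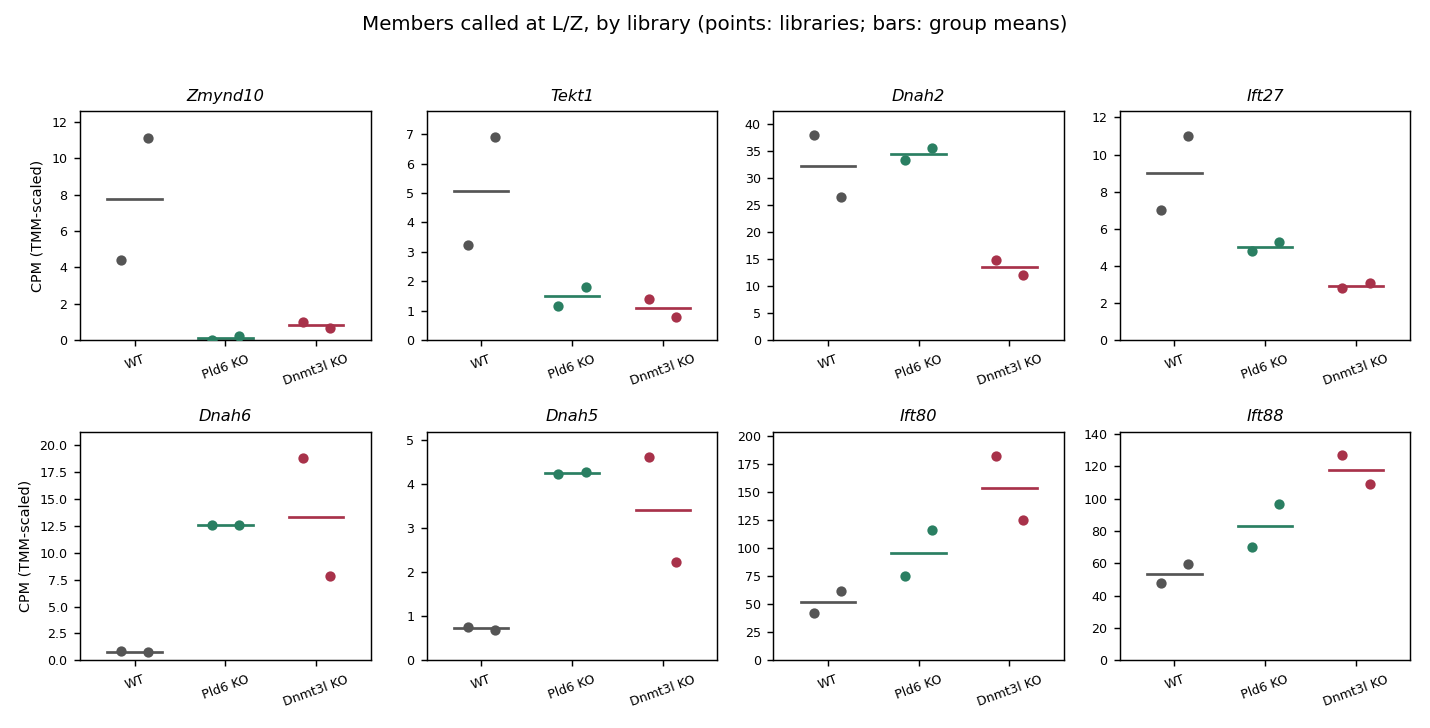
TMM-scaled CPM in each L/Z library (points) with group means (bars, n = 2 each) for the 8 genes called in at least 1 mutant, on linear axes from 0. The upper row holds the genes called lower (Zmynd10, Tekt1, Dnah2, Ift27) and the lower row those called higher (Dnah6, Dnah5, Ift80, Ift88).

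Across all 38 tested genes, both WT libraries lay above all 4 mutant libraries for 6 (15.8%, against 12.5% of all genes): Dnah8, Ift27, Ift43, Tekt1, Tekt2 and Zmynd10. They lay below all 4 for 5 (13.2%, against 14.1%): Dnah5, Dnah6, Dnah7b, Ift80 and Ift88. Both shares were near those of all genes. Dnmt3l KO replicate 1, the shallowest library, held the highest value of 16 of the 38 genes (42.1%, against 25% of all genes).

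Cell type markers also differed at L/Z, with calls in Dnmt3l KO against WT and none in Pld6 KO against WT. In Dnmt3l KO against WT, 7 of 10 L/Z markers were called higher, with a median log2 change of 1.32 over the 10, and their summed level was 7650 to 8290 CPM against 2300 to 4010 in WT and 2930 to 4640 in Pld6 KO. The 8 spermatogonia markers summed to 919 to 1570 CPM in Dnmt3l KO, 1830 to 1870 in WT and 1550 to 1620 in Pld6 KO. Their median log2 change in Dnmt3l KO was -0.86, and Sohlh1 fell (log2 -1.11 ± 0.25, edgeR FDR 0.0291). The summed Sertoli markers were 99 to 355 CPM in Dnmt3l KO, 369 to 576 in WT and 361 to 567 in Pld6 KO, with 0 of 8 called in both mutants. Of 14 pachytene and later markers, of which 7 were tested, Piwil1 fell in Dnmt3l KO (log2 -2.29 ± 0.31, edgeR FDR 0.00514) and none was called in Pld6 KO. The sum of the 14 was 207 to 443 CPM in WT, 185 to 243 in Pld6 KO and 345 to 540 in Dnmt3l KO; Prm1, a defining spermatid gene, was at or below 0.339 CPM in all 6. Ldhc, a germ cell lactate dehydrogenase that rises at pachytene, was at 16.3 and 34.2 CPM in WT and 2.18 to 11.4 CPM in the mutants. Hspa2, the highest of the 14 in every L/Z library, did not share this fall in Dnmt3l KO. It was at 94.8 and 276 CPM in WT, 107 and 128 CPM in Pld6 KO and 444 and 245 CPM in Dnmt3l KO. The part of these contents in the changes of Zmynd10, Tekt1, Dnah6 and the IFT genes was not tested.

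Further genes of the pathway were read against the same background, 0.225% of all genes called for Pld6 KO and 5.47% for Dnmt3l KO (3.89% higher, 1.58% lower). None of the 15 other dynein arm and assembly genes tested was called in either mutant. In Dnmt3l KO Ccdc40, which sets the spacing of inner arms and spokes, was the only call of 9 ruler, nexin and other spoke genes (log2 -1.25 ± 0.29, edgeR FDR 0.0316). Spag6, of the central pair, was the only call of 6 (log2 -3.15 ± 0.68, FDR 0.0252), with 3.13 and 4.93 CPM in WT, 0.436 and 0.473 CPM for Pld6 KO and 0.2 and 0.573 CPM for Dnmt3l KO. Higher in Dnmt3l KO were Ttc26, a complex B subunit (log2 1.96 ± 0.4, FDR 0.0226), and Kifap3, of the kinesin that drives outward transport (log2 1.12 ± 0.28, FDR 0.0383), 2 of 19 transport and motor genes. Bbs7 rose (log2 1.25 ± 0.29, FDR 0.0313), 1 of 12 BBSome genes, a complex that works with IFT on membrane cargo.

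Among 9 cilium transcription factors tested, 2, Rfx3 and Mybl1, rose in Dnmt3l KO, where 3.89% of all genes were called higher. Rfx3, a member of the family that binds the X-box, was at 27.7 and 30.6 CPM in WT, 46.2 and 61.5 CPM in Pld6 KO and 86.0 and 60.3 CPM in Dnmt3l KO (log2 1.32 ± 0.26, edgeR FDR 0.0194). Mybl1, a meiotic regulator, was at 37.2 and 60.7, 112 and 173, and 325 and 227 CPM (log2 2.49 ± 0.31, FDR 0.00345). Rfx2, the family member best known in spermatogenesis, was at 27.2 and 54.3 CPM in WT, 31.0 and 35.4 CPM in Pld6 KO and 81.4 and 50 CPM in Dnmt3l KO, without a call. None of these lists had a call in Pld6 KO.

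The mutants were also set against each other at L/Z. No gene of the 38 was called between Dnmt3l KO and Pld6 KO by edgeR, where 0.0477% of all genes were; 12 of 38 (31.6%) had an unadjusted p under 0.05, against 17.5% of all genes. DESeq2 called 1, Dnah2, and limma none. Dnah2 had the smallest p of the group. It was called by edgeR too when either WT library was left out of the shared estimate of spread. Ift57 and Ift81, complex B subunits, followed with 1.0 ± 0.32 (FDR 0.184) and 0.93 ± 0.3 (FDR 0.181). Ift57 was at 13.1 and 16.2 CPM in Pld6 KO and 33.4 and 25.8 CPM in Dnmt3l KO, and Ift81 at 44.6 and 61.4 and at 104 and 99.3 CPM. Neither gene overlapped between the mutants, but the share of all genes separated in this way was not computed.

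At P0, before any germ cell of the testis has entered meiosis, the same genes were compared in whole testes over 15901 genes. Of the 42 genes 37 were tested; Zmynd10, Rsph6a, Tekt3, Tekt4 and Tekt5 had too few fragments. None was called in any of the 5 comparisons. In Pld6 KO against WT 0.00629% of all genes were called, in Dnmt3l KO against WT 0.0%, in DKO against WT 0.0126%, in DKO against Pld6 KO 0.0% and in DKO against Dnmt3l KO 0.0755%. DESeq2 likewise called none in 4 comparisons and 2, Rsph1 and Tekt1, in DKO against Dnmt3l KO, and limma called none in any.

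At an unadjusted p under 0.05 (edgeR), 2 of 37 genes (5.41%) stood out in Pld6 KO against WT, where 5.06% of all genes did. There were 7 (18.9%) in Dnmt3l KO against WT, where 12.9% did, and 2 (5.41%) in DKO against WT, where 7.97% did. There was 1 (2.7%) in DKO against Pld6 KO against a background of 6.02%, and there were 10 (27.0%) in DKO against Dnmt3l KO against 17.8%. The medians of the 37 log2 changes were 0.15, 0.29, 0.02, -0.13 and -0.18, against -0.01 to 0.03 over all genes. The first 3 comparisons share the WT libraries.

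**Figure D4:**
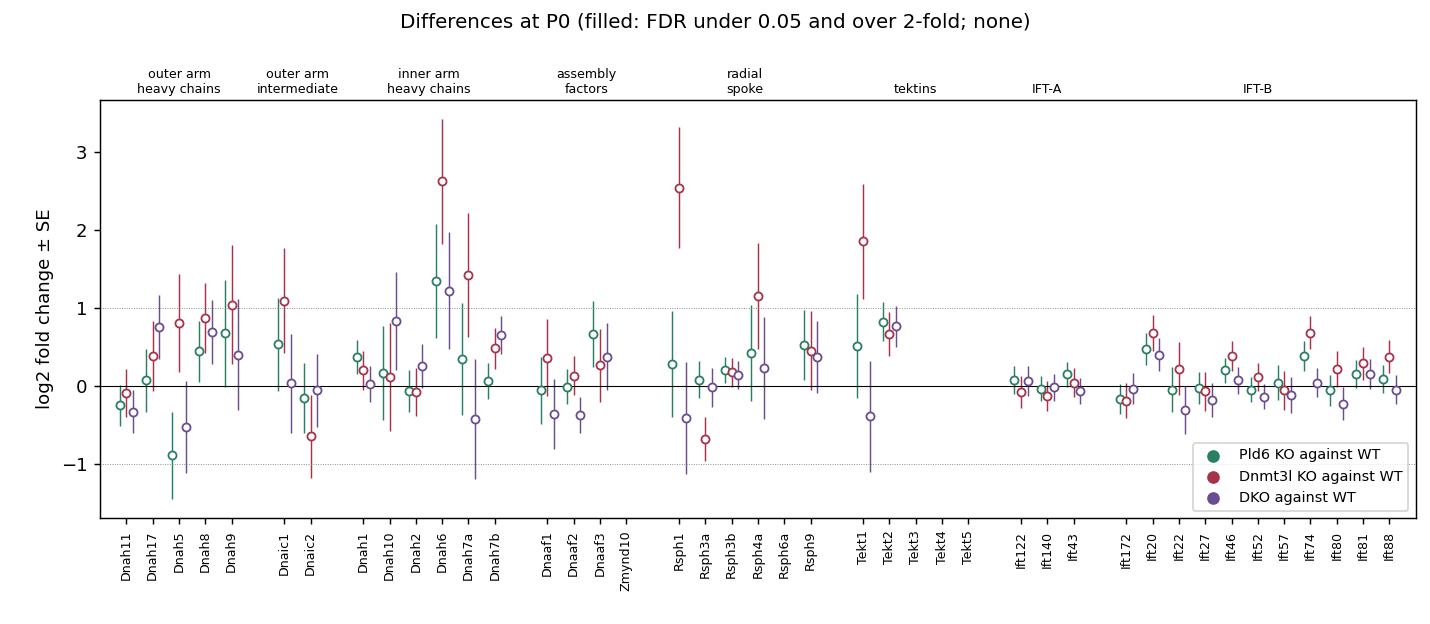
Log2 fold changes ± SE (edgeR) of the 37 tested genes at P0 in Pld6 KO, Dnmt3l KO and DKO testes, each against the same 2 WT libraries; no point passed an FDR of 0.05 with 2-fold, and dotted lines mark 2-fold. The IFT genes lie close to 0, and the widest values are Dnah6, Rsph1 and Tekt1 in Dnmt3l KO.

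The Dnmt3l KO replicate 1 library stood apart for several of these genes. Rsph1 had 520 fragments there (45.6 CPM), against 30 to 77 in the other 10 libraries (2.48 to 6.44 CPM). Zmynd10 had 73 fragments there (6.4 CPM) and 1 to 8 in the others, and Tekt1 86 against 6 to 51. Rsph6a and Tekt3, at 10 and 9 fragments there, had at most 3 and 5 elsewhere. This library held the highest value of 14 of 37 genes (37.8%, against 17% of all genes).

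The same library also had the highest summed levels of meiotic markers, though not of each marker. Sycp3, of the synaptonemal complex, was at 34.7 CPM there and 4.02 to 9.22 CPM in the others, and Ldhc at 65.7 against 0.838 to 2.08 CPM. The 10 L/Z markers summed to 251 CPM there and to 61.3 to 161 CPM in the others, and the 14 pachytene and later markers to 176 against 63.1 to 88.1 CPM. Smc1b and Rec8 were higher elsewhere, at up to 51.7 and 6.82 CPM, against 41.6 and 4.03 CPM there. Prm1, Prm2, Tnp1 and Tnp2 were at 1.65 to 3.8 CPM in Pld6 KO replicate 1, against 0 to 0.438 CPM in Dnmt3l KO replicate 1. The summed prospermatogonial markers were 490 against 120 to 424 CPM. The 10 multiciliated epithelium markers summed to 3.68 CPM there, within the 1.81 to 4.97 CPM of the others. Of these, Foxj1 was at 1.14 CPM and Mcidas and Sntn at 0, whereas Gmnc was highest there (0.614 CPM, against 0 to 0.174), as were Tmem212 (0.175 CPM, against 0 to 0.0419) and Fam216b (0.0877 CPM, against 0). The part of these contents in the high values of Rsph1, Zmynd10 and Tekt1 was not tested.

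Between DKO and Dnmt3l KO, Rsph1 had a log2 change of -2.95 ± 0.68 (edgeR FDR 0.0874), which was -0.2 without that library, and Tekt1 -2.24 ± 0.66 (FDR 0.131). The Rsph1 difference of Dnmt3l KO against WT, log2 2.54 ± 0.77 (edgeR FDR 0.293), became -0.22 without that library. Tekt1 went from 1.85 ± 0.74 (FDR 0.344) to 1.42 and Dnah6 from 2.62 ± 0.8 (FDR 0.293) to 2.96. Without it no gene was called, and 4 of 38 had an unadjusted p under 0.05, where 8.46% of all genes did.

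Dnah6, the gene that rose in both mutants at L/Z, was at 0.68 and 1.51 CPM in WT P0 testes. The 4 Pld6 KO libraries had 0.495, 2.46, 2.48 and 5.84 CPM, the 2 Dnmt3l KO libraries 5.0 and 8.59 CPM, and the 3 DKO libraries 3.84, 1.67 and 2.31 CPM. Only the Dnmt3l KO and DKO libraries all lay above WT, the lowest DKO library narrowly (1.67 against 1.51 CPM). The share of all P0 genes separated in this way was not computed. Against WT, the log2 change of the DKO was 1.22, that of Dnmt3l KO 2.62 and that of Pld6 KO 1.34, none of them called.

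Tekt2 was at 5.27 and 5.12 CPM in WT and between 6.72 and 10.9 CPM in all 9 mutant libraries. The log2 change was 0.82 ± 0.25 for Pld6 KO (edgeR FDR 0.963), 0.66 ± 0.28 for Dnmt3l KO (0.359) and 0.76 ± 0.26 for DKO (0.453). Ift20 had 21.9 and 26.7 CPM in WT and 27.4 to 43.5 CPM in the mutants, with a log2 change of 0.68 ± 0.23 in Dnmt3l KO (FDR 0.312). Ift74, a complex B core subunit, was at 52.3 and 55.3 CPM in WT and 85.0 and 86.9 CPM in Dnmt3l KO (log2 0.68 ± 0.21, FDR 0.302), but at 46.6, 56.0 and 62.7 CPM in DKO. Dnah7b was at 25.9 and 21.2 CPM in WT and 44.4, 33.4 and 33.5 CPM in DKO (log2 0.65 ± 0.24, FDR 0.5), with 18.4 to 31.3 CPM in Pld6 KO. Mutant and WT libraries of Tekt2 and Ift20 did not overlap, but the share of all P0 genes separated in this way was not computed. None of these differences passed the adjustment over all genes.

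**Figure D5:**
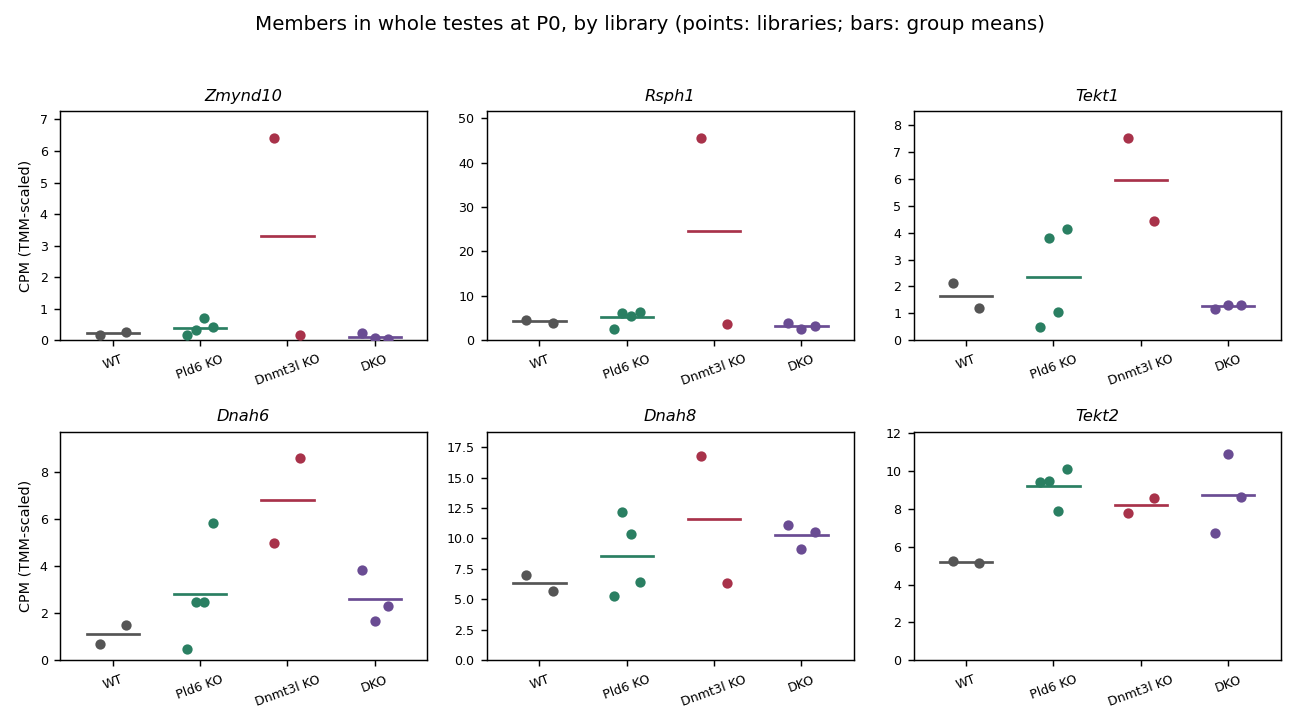
TMM-scaled CPM in each P0 library (points) with group means (bars; WT n = 2, Pld6 KO n = 4, Dnmt3l KO n = 2, DKO n = 3) for 6 genes, on linear axes from 0. A single Dnmt3l KO library sets the group mean of Zmynd10 and Rsph1, whereas Tekt2 is higher in every mutant library than in WT.

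Whether a mutant's effect differed between the stages was tested as the log2 change at L/Z minus that at P0, over 16547 genes that included 40 of the 42. None passed an FDR of 0.05 for Pld6 KO, where 0.0121% of all genes did, nor for Dnmt3l KO, where 0.665% did. At an unadjusted p under 0.05 there were 9 of 40 (22.5%) for Pld6 KO, against 9.52% of all genes, and 15 (37.5%) for Dnmt3l KO, against 17.2%. DESeq2 gave 1 (Zmynd10) for Pld6 KO and 4 (Ift27, Ift80, Tekt1 and Zmynd10) for Dnmt3l KO. The widest edgeR difference was that of Zmynd10, -7.18 ± 1.59 for Dnmt3l KO (FDR 0.0573) and -6.47 ± 1.79 for Pld6 KO (FDR 0.385), values fitted against P0 counts that were mostly 1 to 8. Ift27 and Tekt1 followed in Dnmt3l KO with -1.55 ± 0.38 (FDR 0.0753) and -4.16 ± 1.13 (FDR 0.091). Without P0 Dnmt3l KO replicate 1, Zmynd10 no longer had an unadjusted p under 0.05 for Dnmt3l KO. The stages also differ in cell content and in read type (50-base single reads at L/Z, 100-base pairs at P0), which cannot be told apart from age.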

How the data were processed

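Reads had been aligned with TopHat2, as the study's methods name it, and counted with Cuffdiff against mm10, per the submitters' processing notes; release numbers are not given in the sources used here. The deposited tables give for each gene and library estimated counts (fragments, 97.7% to 97.8% of them whole) and FPKM, which the authors' run of Cuffdiff normalized by depth and transcript length. Estimated counts were rounded; 6 genes at L/Z and 2 at P0 without status OK were left out. The tables number libraries from 0 and the labels from 1, and the lower was taken as the lower. Each stage was fitted with all its groups by edgeR 4.0.16 (filterByExpr, TMM, quasi-likelihood F-test, Benjamini-Hochberg over all genes, R 4.3.3). CPM are TMM-scaled within a stage. Alternatives used DESeq2 1.42.0 and limma 3.58.1; the fits were tested on simulated data. Named genes were Zmynd10, every call, the 4 smallest p per comparison with a group mean of at least 10 counts, and the 2 highest WT FPKM per role and stage; Rsph6a, Tekt3 to Tekt5, Dnah9, Ift46 and Ift172 were added afterwards. The members, the pathway and marker lists and the motifs were chosen with earlier results of these data known. Reads shared by near-identical copies (Dnah7a and Dnah7b, Rsph3a and Rsph3b) may be split between them. Intervals cover counting error only.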

Additional observations from a re-analysis of the deposited data

Results flagged for a closer look

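In the 4 Pld6 KO libraries at P0, each of the 38 genes with at least 10 fragments in some library was examined for a library far from the other 3 by Dixon's criterion, which chance meets in about 1 of 20 groups. It was met by 2 genes. Dnah10, an inner arm heavy chain, was at 0.578 CPM in replicate 1 and at 4.73 to 5.25 CPM in the other 3. The summed prospermatogonial markers were also lowest in replicate 1, at 120 CPM against 353 to 424 CPM, and their part in this was not tested. Tekt5, a tektin, was at 1.11 CPM (11 fragments) in replicate 4 and at 0.397 to 0.514 CPM (5 to 6 fragments) in the other 3.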

How the results depend on the processing

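For Pld6 KO against WT at L/Z the 2 called genes became 1 (Dnah6) at a mean of at least 50 counts, and 0 with limma on log2(FPKM + 1) or log2(FPKM + 0.1) and when only the 2 groups were fitted; leaving out a library gave 0 to 3. For Dnmt3l KO against WT the 8 became 5 at a mean of at least 50 counts, 3 with an offset for GC content and length, and 1 with limma at either pseudocount (Ift27); leaving out a library gave 0 to 10. A factor for the rRNA-rich libraries left 2 and 6. For Dnmt3l KO against Pld6 KO, 1 gene, Dnah2, was called without a filter, by DESeq2 and with only the 2 groups; leaving out a library gave 0 to 1. The DKO against Dnmt3l KO comparison at P0 gave 2 without a filter, 2 with DESeq2 and 1 with only the 2 groups; leaving out a library gave 0 to 2, as for Dnmt3l KO against WT at P0. The stage difference gave 1 with DESeq2 for Pld6 KO and, for Dnmt3l KO, 4 with DESeq2, 1 without a filter and 0 to 1 without a library. The pseudocount added before limma shrinks log2 changes of genes with low FPKM. The calls lost with limma also included Ift80 and Ift88, at 10.9 to 47.3 and 16.4 to 44.8 FPKM in L/Z libraries. The cause was not tested. The log2 fold change of Rsph1, L/Z Pld6 KO against WT, changed sign to 0.43 without WT replicate 2 and was -2.28 without WT replicate 1. The log2 fold change of Rsph1, P0 Dnmt3l KO against WT, changed sign to -0.22 without Dnmt3l KO replicate 1 and was 3.41 without Dnmt3l KO replicate 2, where the lone Dnmt3l KO library is assumed to vary like the other groups, as in every fit that leaves 1 library in a group.

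Libraries share only a number, and same-numbered L/Z libraries had correlated deviations of 0.485 for WT and Pld6 KO but -0.144 and -0.135 with Dnmt3l KO. With the replicate number as a block, 2, 7 and 0 genes were called in the 3 L/Z comparisons and 0 at P0. A crossed pairing, added after the data were seen, gave 2, 10 and 2.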
